A study of Mus musculus with 12 samples.

Results

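The transcripts described here are those of interleukin 10, the cytokine receptor chains Il10ra, Il4ra, Il2rg, Il21r and Il7r, and the signalling inhibitors Socs1, Socs3 and Cish, chosen by gene symbol as 9 genes in all. On the array, 8 of the 9 had a named probe, with 14 probes between them among the 45281 probes of the array; Il2rg had none and is not analysed here. After a filter on dim probes, 7 of the 9 genes were tested among 10050 genes in all. The single Socs1 probe was above the detection limit on 1 of 12 arrays, an untreated wild-type array, and was not tested.

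B cells came from the spleens of C57BL/6 mice, 8 weeks old and heterozygous for a deletion of E2A, the gene also called Tcf3. The cells were infected with a retrovirus that expressed GFP and E12, a helix-loop-helix transcription factor encoded by E2A, in its wild-type form or as a mutant that the series title calls resistant to the calcium sensor calmodulin. Illumina bead arrays measured their messenger RNA in 4 groups of 3 arrays. Cells with mutant E12 were given anti-IgM or left untreated, and so were cells with wild-type E12. Anti-IgM, an F(ab')2 antibody that crosslinks the B cell antigen receptor, was given at 2.5 μg/ml for 3 h. All 4 groups, the untreated ones included, had been activated for 14 h with CD40 ligand (200 ng/ml) and IL-4 (5 ng/ml). They had then been infected in rounds of 12 h with lipopolysaccharide (200 ng/ml), kept for another 22 h with the stimulants, and sorted for GFP. The ligand of Il4ra was therefore in the medium of every group, every cell kept an E2A allele of its own, and no group lacked the virus. The labels do not say whether replicates came from separate mice, so the p-values measure the spread between these samples, which may be technical.

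As background, a cytokine such as IL-10 binds a receptor on the cell surface and activates JAK kinases, which phosphorylate STAT transcription factors. IL-10 uses its own alpha chain, Il10ra, while the receptors for IL-4, IL-7 and IL-21 pair Il4ra, Il7r and Il21r with the common gamma chain Il2rg. STATs switch on genes of the SOCS family, among them Socs1, Socs3 and Cish, whose products inhibit the receptors and kinases in a negative feedback loop. B cells are a known source of IL-10, which dampens inflammatory responses, and IL-4 and IL-21 steer B cell activation and antibody class switching.

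Tcf3 was above the limit on all 12 arrays, with log2 intensities of 11.27 to 12.93 in the mutant E12 arrays and 10.34 to 11.17 in the wild-type E12 arrays. It was higher with the mutant by 1.68 untreated and by 1.55 with anti-IgM (limma adjusted p = 0.00153 and 0.00249). Where its probe lies relative to the viral insert is not known here. Tcf3 signal thus differed along with E12 form. Their parts in a difference between forms, or between the responses of the forms, cannot be told apart. Of 9 B cell markers 6 were tested, among them Cd79b, Cd22 and Ms4a1, while Pax5 was too dim to test. The authors had normalized the arrays of each E12 form separately, as read from their medians of 6.4 for the mutant and 6.93 or 6.94 for the wild type. A difference between E12 forms and a difference between the normalized sets therefore cannot be told apart, while comparisons of anti-IgM with no treatment lie within a set. Untreated wild-type replicate 1 stood apart for several members, and results that turn on it are given without it too. All levels below are log2(intensity + 50) after joint quantile normalization, so differences of dim probes are understated.

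**Figure D1:**
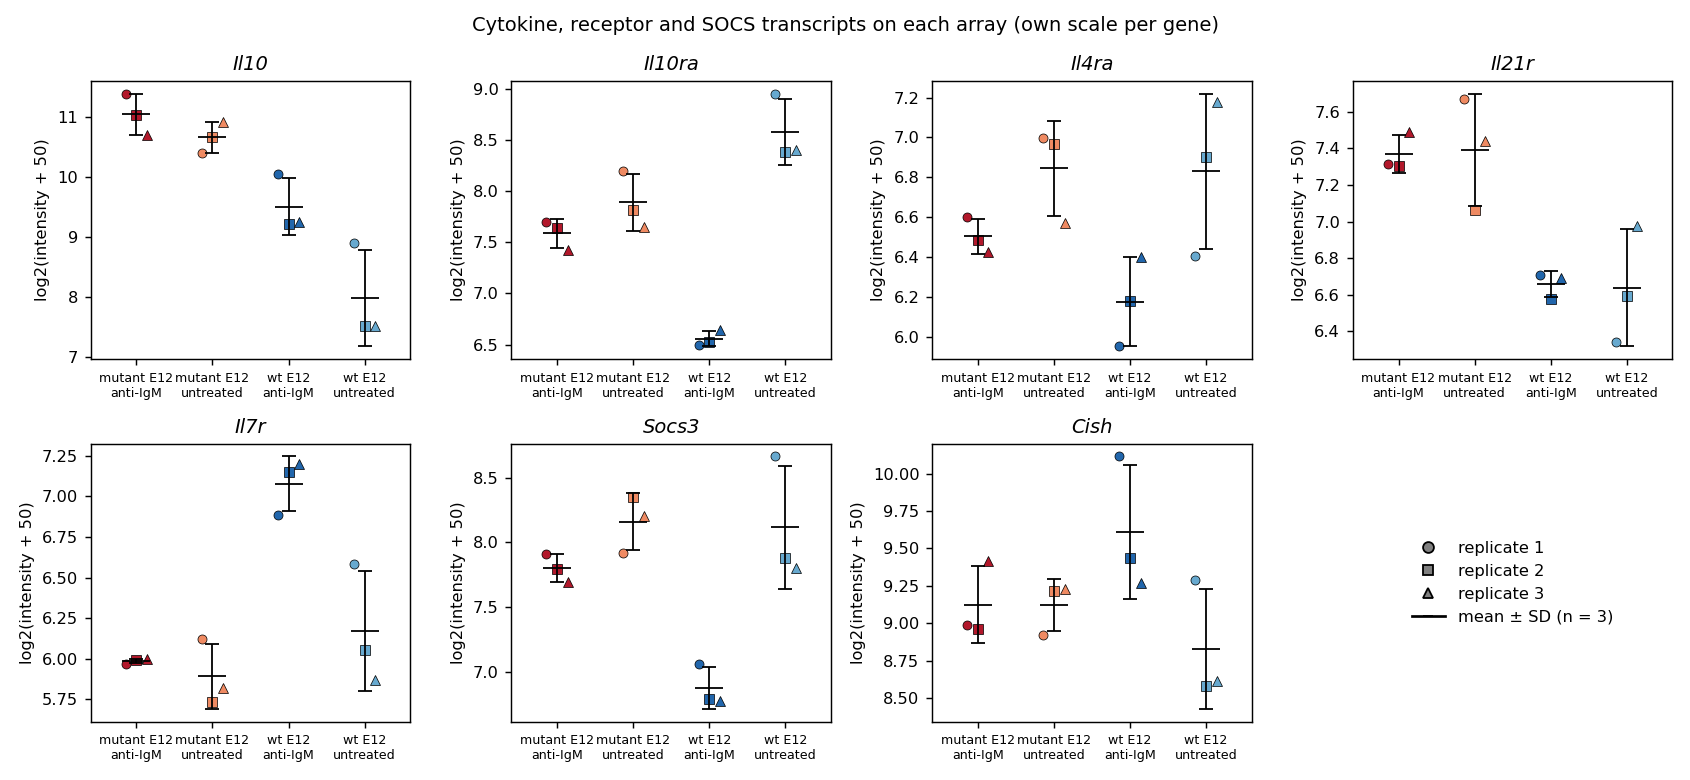
Each panel plots 1 tested gene, with log2(intensity + 50) on the vertical axis (its own scale per gene) and the 4 groups on the horizontal axis; symbols are replicates and bars the mean ± SD of 3 arrays. Il10 was highest in the mutant E12 groups and lowest in untreated wild-type cells, while Il10ra and Socs3 were lowest in wild-type cells with anti-IgM.

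With wild-type E12, 6 of the 7 tested genes changed with anti-IgM past an adjusted p of 0.05 (limma, Benjamini-Hochberg over 10050 genes, n = 3 per group): Il10, Il7r and Cish rose, and Il10ra, Il4ra and Socs3 fell. In this comparison 31.3% of all genes tested passed, 15.1% upward and 16.2% downward, and the arrays of 5 of the 7 genes did not overlap between the groups, as in 50.3% of all genes. The median difference over the 7 genes was 0.02, against -0.02 over all genes. The comparison asks how the cells responded to their antigen receptor. In bulk samples, fewer cells of a type and less RNA per cell cannot be told apart.

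Il10 encodes the cytokine itself. Its log2 levels were 10.05, 9.22 and 9.25 with anti-IgM, against 8.91, 7.53 and 7.51 in untreated wild-type cells. Every treated array lay above every untreated array, and replicate 1 was the highest of its group in each. The rise was 1.52 ± 0.33 log2 units (SE; limma adjusted p = 0.00265), a 2.87-fold difference, with a 95% interval of 0.82 to 2.22. Without untreated wild-type replicate 1 it was 1.99.

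Il10ra, the ligand-binding chain of the IL-10 receptor, went the opposite way. It measured 6.50, 6.53 and 6.64 with anti-IgM and 8.96, 8.38 and 8.40 without. The groups did not come near each other, and the treated arrays spanned only 0.14 log2 units. The difference was -2.02 ± 0.17 (limma adjusted p = 1.70e-06), or 4.07-fold, so that ligand and receptor transcripts moved in opposite directions within 3 h.

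Il4ra, the alpha chain shared by the IL-4 and IL-13 receptors, measured 5.95, 6.18 and 6.40 with anti-IgM and 6.41, 6.90 and 7.18 without. The groups did not overlap, but the highest treated and the lowest untreated array were almost level, and 1 of the 3 treated arrays was not above the limit. The difference was -0.65 ± 0.19 (limma adjusted p = 0.0152). The call was lost when any of 3 arrays was left out. The difference was -0.62 (adjusted p = 0.0506) with untreated wild-type replicate 2 removed, -0.48 (adjusted p = 0.0736) with untreated replicate 3 removed, and -0.54 (adjusted p = 0.0777) with treated replicate 1 removed. With an offset of 16 or 100 in place of 50 the difference was -1.05 or -0.43, past the threshold with each.

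Il7r, the alpha chain of the receptor for IL-7, a growth factor of early B cells and of T cells, measured 6.89, 7.15 and 7.20 with anti-IgM and 6.58, 6.06 and 5.87 without. Its brightest probe was above the limit on 3 of 3 treated and 2 of 3 untreated wild-type arrays. The rise was 0.91 ± 0.17 (limma adjusted p = 9.72e-04), with no overlap between the groups. The probes of Il7r disagreed, as the plot of every probe shows. The other tested probe did not move (0.00 ± 0.14, adjusted p = 0.997 over all detected probes), and the mean of the tested probes rose by 0.46 (adjusted p = 0.0198). A further probe was above the limit on 2 of the 12 arrays, both of wild-type cells with anti-IgM, and the remaining 2 probes on 0 arrays. With an offset of 16 or 100 the rise was 1.46 or 0.60.

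Il21r, the alpha chain of the IL-21 receptor, was level: 6.71, 6.58 and 6.69 with anti-IgM against 6.34, 6.59 and 6.98 without. The difference was 0.02 ± 0.17 (limma adjusted p = 0.941), with an interval of -0.35 to 0.39. Its other probes gave -0.14 and -0.05, neither past the threshold.

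Socs3, an inhibitor that binds cytokine receptors and JAKs, measured 7.06, 6.79 and 6.77 with anti-IgM and 8.66, 7.88 and 7.80 without. All treated arrays lay below all untreated ones. The difference was -1.24 ± 0.20 (limma adjusted p = 2.90e-04), or 2.36-fold. Untreated replicate 1 was the highest array of its group for Socs3, as for Il10, Il10ra, Il7r and Cish.

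Cish, a SOCS family member induced by STAT5, measured 10.11, 9.43 and 9.27 with anti-IgM and 9.29, 8.58 and 8.61 without. These groups overlapped narrowly, since treated replicate 3 lay below untreated replicate 1. The rise was 0.78 ± 0.23 (limma adjusted p = 0.0182). Removing the same 3 arrays that Il4ra depended on ended this call too: the rise was 0.65 (adjusted p = 0.0770), 0.67 (adjusted p = 0.0683) and 0.52 (adjusted p = 0.102), in that order. The SOCS genes with a call thus differed in direction, Cish higher and Socs3 lower. The Socs1 probe had deposited intensities of 3.25, 6.48 and 1.03 with anti-IgM and 15.4, 9.80 and 6.36 without, below the limit on all but 1 of these arrays.

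The promoter windows of 4 of the genes that changed are shown because STAT proteins and E12 bind known short motifs. Windows are the 250 bases before the start site in the RefSeq table (GRCm38.p6), matched by symbol for 7 of the 9 genes, all but Il10 and Il10ra. Capitals mark the STAT-type motif TTCNNNGAA and the E-box CANNTG, searched on both strands, where each reads the same. The first 2 lines give a whole window and the last 2 the 29 bases around a TTCNNNGAA match.
Il4ra, chr7:125552021-125552270, plus strand: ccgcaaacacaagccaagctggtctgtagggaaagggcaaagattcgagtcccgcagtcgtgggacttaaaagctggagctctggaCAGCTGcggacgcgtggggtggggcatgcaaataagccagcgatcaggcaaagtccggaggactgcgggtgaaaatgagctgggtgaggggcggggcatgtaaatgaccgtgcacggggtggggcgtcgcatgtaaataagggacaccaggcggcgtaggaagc
Cish, chr9:107296409-107296658, plus strand: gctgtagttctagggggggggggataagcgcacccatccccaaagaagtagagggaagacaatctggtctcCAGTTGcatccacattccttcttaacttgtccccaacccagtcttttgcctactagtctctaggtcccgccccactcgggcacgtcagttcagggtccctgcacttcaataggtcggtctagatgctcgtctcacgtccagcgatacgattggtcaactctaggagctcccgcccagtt
Socs3, chr11:117969502-117969530, minus strand: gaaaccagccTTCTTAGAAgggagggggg
Il7r, chr15:9530000-9530028, minus strand: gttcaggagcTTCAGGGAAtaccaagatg
TTCNNNGAA was found in 2 of the 7 windows, those of Socs3 (bases 154 to 146 before the start) and Il7r (bases 142 to 134), and in 7.02% of all 32851 windows of this length. The form of this motif with a spacer of 4 bases was in 0 of the 7 and in 5.85% of all windows. CANNTG was in 4 of the 7, those of Il4ra, Il21r, Il7r and Cish, and in 66.2% of all, and the E-box form CAGGTG, which is also a CANNTG match, in 0 of the 7 and in 17.2% of all. Of the genes with TTCNNNGAA, Socs3 fell and Il7r rose. These matches describe letters in the windows only.

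With mutant E12, 0 of the 7 tested genes passed the threshold after anti-IgM (limma, Benjamini-Hochberg), where 0.229% of all genes did; 0 of the 7 had an unadjusted p under 0.05, where 9.17% of all genes did. Past the adjusted threshold, 0.189% of all genes rose and 0.0398% fell. Socs3 was the only member whose 3 treated arrays lay apart from the 3 untreated ones, as in 12.1% of all genes.

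**Figure D2:**
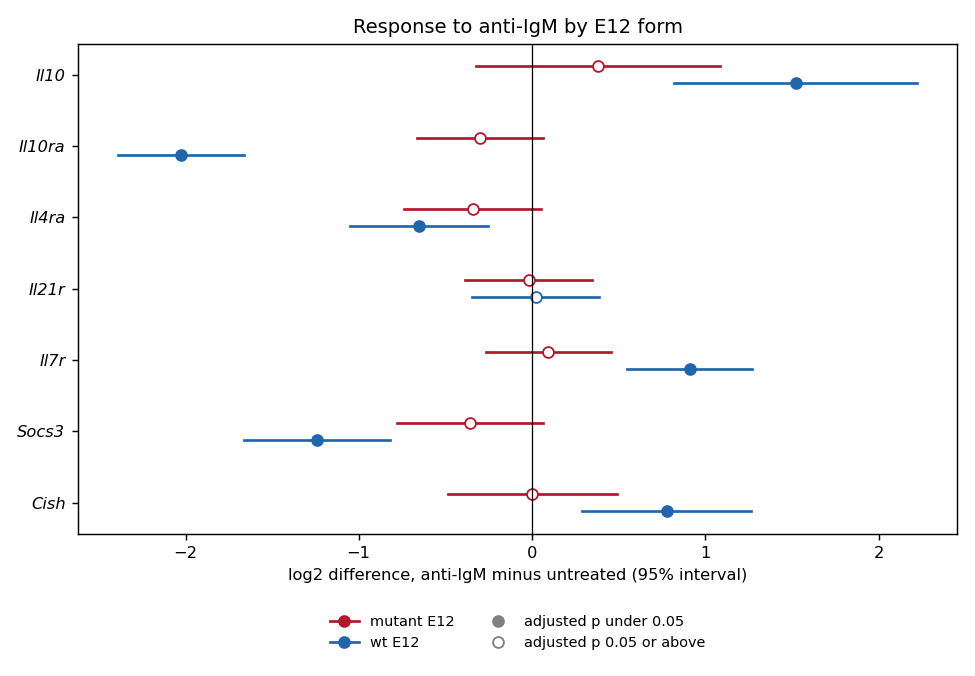
The log2 difference of anti-IgM minus untreated is plotted for each tested gene with mutant E12 (red) and wild-type E12 (blue); lines are 95% intervals of the limma fit and filled points have an adjusted p under 0.05. All 7 mutant E12 points are open, and 6 of the 7 wild-type E12 points are filled.

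Il10 was already high with the mutant, at 11.38, 11.04 and 10.70 with anti-IgM and 10.40, 10.66 and 10.92 untreated. The groups overlapped and the difference was 0.38 ± 0.33 (95% interval -0.32 to 1.08; limma adjusted p = 0.857). Il10ra measured 7.70, 7.64 and 7.43 with anti-IgM and 8.20, 7.82 and 7.65 untreated, again with overlap (-0.30 ± 0.17, interval -0.67 to 0.06; limma adjusted p = 0.680).

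Socs3 was 7.91, 7.80 and 7.69 with anti-IgM and 7.92, 8.35 and 8.21 untreated. The groups were separated by less than the spread within either (-0.36 ± 0.20, interval -0.78 to 0.06; limma adjusted p = 0.654), and with array weights the fall was called (-0.51, adjusted p = 0.0447). Il4ra was 6.60, 6.49 and 6.43 with anti-IgM and 7.0, 6.97 and 6.57 untreated (-0.34 ± 0.19, limma adjusted p = 0.639). Cish was 8.99, 8.96 and 9.42 with anti-IgM and 8.92, 9.22 and 9.23 untreated, with overlapping groups and a difference of 0.00 ± 0.23 (interval -0.49 to 0.49; limma adjusted p = 0.999).

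Il21r did not pass either (-0.02 ± 0.17, interval -0.39 to 0.35; limma adjusted p = 0.990). Its levels were 7.31, 7.30 and 7.49 with anti-IgM and 7.67, 7.06 and 7.44 untreated. Il7r was at the edge of detection, at 5.97, 5.99 and 6.00 with anti-IgM and 6.12, 5.74 and 5.82 untreated. Its probe was above the limit on 0 of 3 treated and 1 of 3 untreated mutant arrays, so no fold is given.

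The difference of the responses, mutant minus wild-type E12, was past the threshold for 1 of the 7 genes, Il10ra, where 6.95% of all genes passed, 3.48% upward and 3.46% downward (limma, Benjamini-Hochberg). For Il10ra it was 1.72 ± 0.24 log2 units (95% interval 1.21 to 2.24; limma adjusted p = 0.00130), because the fall of -2.02 with wild-type E12 stood against -0.30 with the mutant. The call held in all 22 alternatives tried, with differences from 1.34 to 2.18. For the others the fit gave -1.14 ± 0.46 for Il10 (adjusted p = 0.165), -0.81 ± 0.24 for Il7r (adjusted p = 0.0561), 0.88 ± 0.28 for Socs3 (adjusted p = 0.0756) and -0.78 ± 0.32 for Cish (adjusted p = 0.179). The intervals of these 4 genes excluded 0 before adjustment, as for 21.1% of all genes. These calls changed with the fit. With replicate number as a block inside each form, all 4 were called beside Il10ra (limma adjusted p of 0.00624 for Il10, 0.0262 for Il7r, 0.00862 for Socs3 and 0.00819 for Cish). Like replicate numbers did not mark clear pairs in either form, as described with the processing. Without untreated wild-type replicate 1, Il10 (-1.60, adjusted p = 0.0121) and Il7r (-1.02, adjusted p = 0.00783) were called, and without untreated wild-type replicate 3 Socs3 was (1.04, adjusted p = 0.0419). Il4ra (0.31 ± 0.26, adjusted p = 0.564) and Il21r (-0.04 ± 0.24, adjusted p = 0.954) had intervals that included 0.

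Between E12 forms without anti-IgM, 3 of the 7 genes differed (limma, Benjamini-Hochberg), where 42.6% of all genes did, 20.4% upward and 22.2% downward: Il10 and Il21r were higher and Il10ra was lower with the mutant. With anti-IgM, 5 of the 7 differed, where 43.5% of all genes did, 21.3% upward and 22.2% downward: Il10, Il10ra, Il21r and Socs3 were higher and Il7r was lower with the mutant. The count in untreated cells is close to that background. Arrays of the forms did not overlap for 3 of the 7 genes untreated and for 6 of the 7 with anti-IgM, as in 49.3% and 58.1% of all genes. Without the joint quantile step the median of all genes shifted to 0.125 untreated and 0.111 with anti-IgM, and the share of calls that were higher moved to 66.8% and 67.4%, against 47.9% and 48.9% with it.

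**Figure D3:**
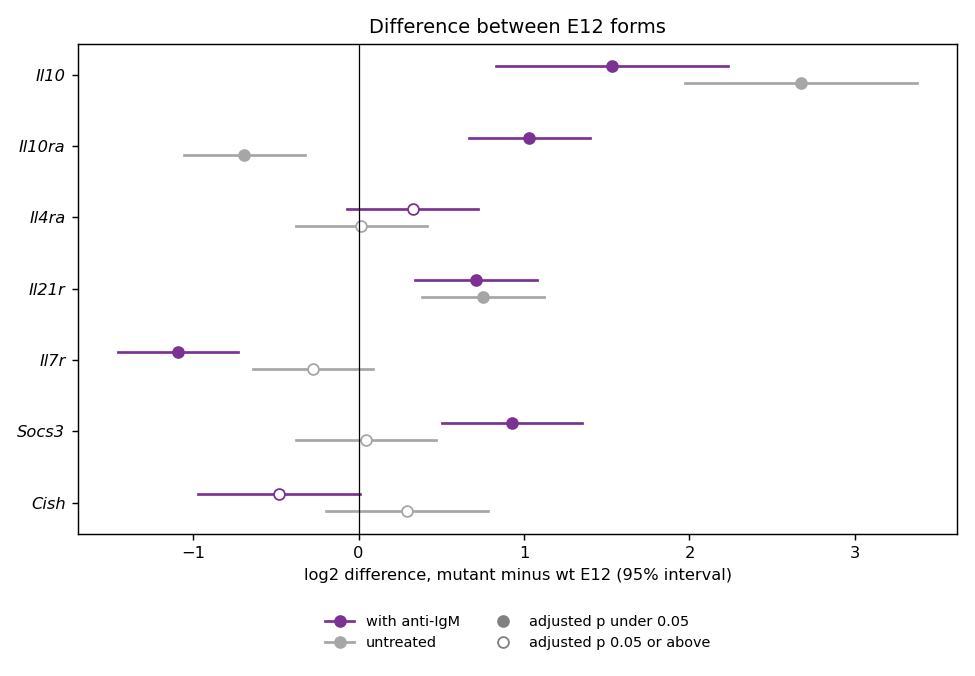
The log2 difference of mutant minus wild-type E12 is plotted for each tested gene with anti-IgM (purple) and untreated (grey); lines are 95% intervals of the limma fit and filled points have an adjusted p under 0.05. Il10 and Il21r lie above 0 in each state, while Il10ra lies at 1.03 with anti-IgM and -0.69 untreated.

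Il10 had the largest difference of the 7 genes in untreated cells. The mutant exceeded the wild type by 2.68 ± 0.33 log2 units, 6.39-fold, untreated (limma adjusted p = 2.29e-05), and by 1.53 ± 0.33, 2.90-fold, with anti-IgM (limma adjusted p = 0.00168). All 6 mutant arrays, at 10.40 or more, lay above all 6 wild-type arrays, at 10.05 or less. The order of its group means was mutant with anti-IgM (11.04 ± 0.34 SD, n = 3), mutant untreated (10.66 ± 0.26), wild type with anti-IgM (9.51 ± 0.47) and wild type untreated (7.98 ± 0.80), of which the first pair did not differ beyond their spread.

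Il10ra changed its order with treatment. With anti-IgM it was 1.03 ± 0.17 higher with the mutant (limma adjusted p = 2.32e-04), while untreated it was lower, with a difference of -0.69 ± 0.17 (limma adjusted p = 0.00472), without overlap in either state. Its means ran from wild type untreated (8.58 ± 0.32) through mutant untreated (7.89 ± 0.28) and mutant with anti-IgM (7.59 ± 0.14) to wild type with anti-IgM (6.56 ± 0.07), and the mutant pair was not distinguished.

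Il21r differed by form and not by treatment. It was higher with the mutant by 0.71 ± 0.17 with anti-IgM and by 0.75 ± 0.17 untreated (limma adjusted p = 0.00385 and 0.00281), and all 6 mutant arrays lay above all 6 wild-type arrays. The next probe gave 0.65 and 0.39 (adjusted p = 6.23e-04 and 0.0163 over all detected probes) and the dimmest 0.30 and 0.33 (adjusted p = 0.0630 and 0.0433). With the mean of the probes the untreated difference was 0.49, still past the threshold.

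**Figure D4:**
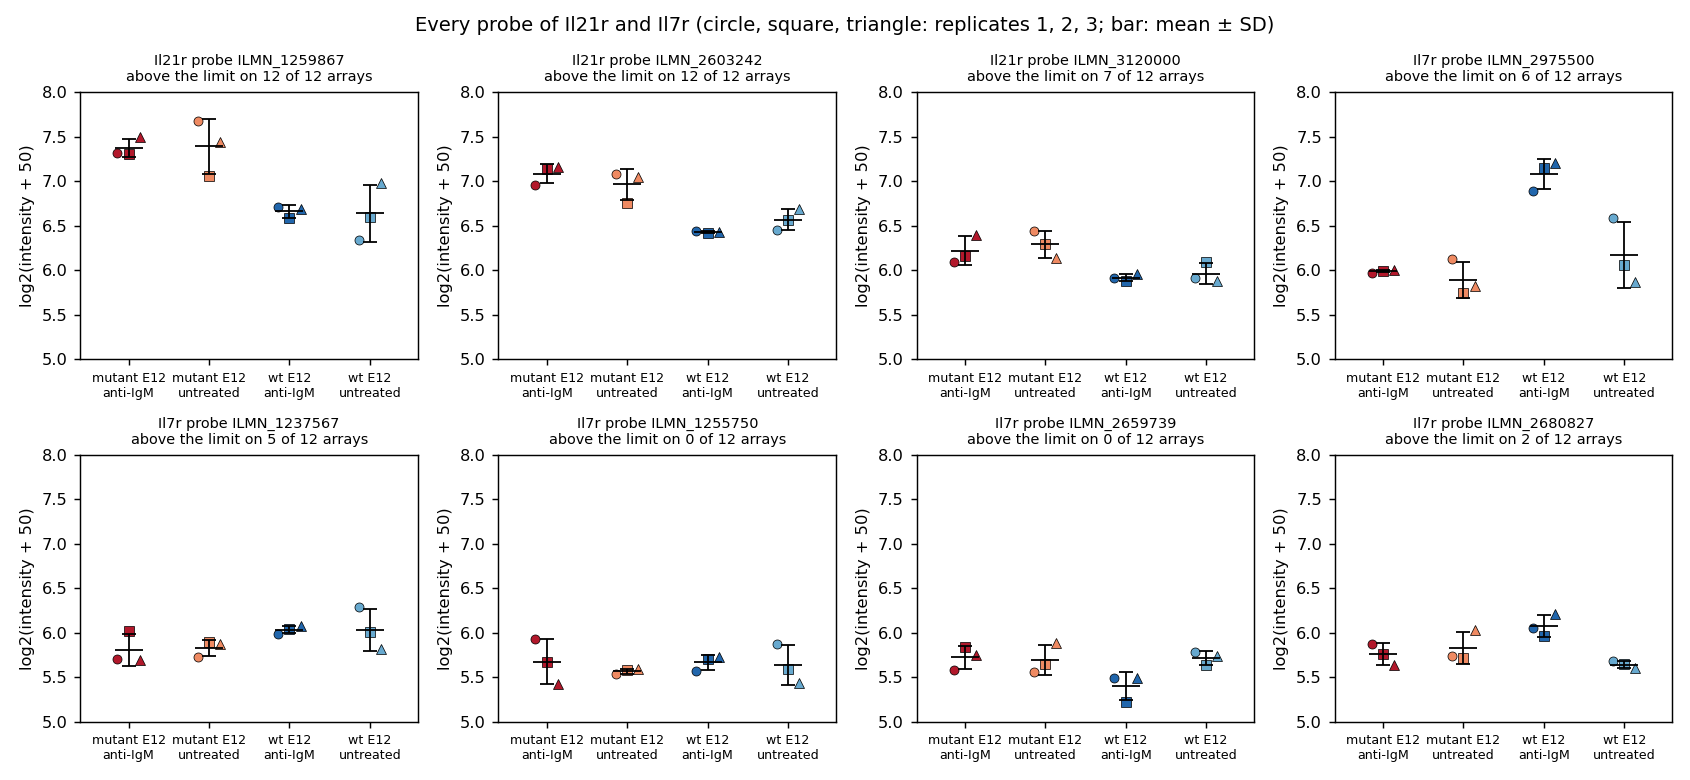
Each panel plots 1 probe of Il21r (3 probes) or Il7r (5 probes), with log2(intensity + 50) on the same vertical scale and the 4 groups on the horizontal axis; symbols are replicates and bars the mean ± SD of 3 arrays. The 3 Il21r probes have higher means in the mutant E12 groups, by 0.30 to 0.75, whereas a clear rise with anti-IgM in wild-type cells appears in the brightest Il7r probe.

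Il7r with anti-IgM was lower with the mutant, with a difference of -1.09 ± 0.17 (limma adjusted p = 1.45e-04). Since its brightest probe, used here, was above the limit on none of these mutant arrays, the fold is a bound. By this probe Il7r was at least 2.05-fold lower, with measured means of 5.99 in the mutant and 7.08 in the wild type. The bound uses, on each mutant array, the higher of the probe's own value and the lowest signal of any probe above the limit. The bound holds for this probe only, and the mean of the tested probes gave a smaller difference of -0.66. Untreated, the difference was -0.28 ± 0.17 (limma adjusted p = 0.205).

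Socs3 was 0.93 ± 0.20 higher with the mutant after anti-IgM (limma adjusted p = 0.00164) and 0.04 ± 0.20 apart untreated (interval -0.38 to 0.47; limma adjusted p = 0.876). Wild-type cells with anti-IgM (6.87 ± 0.16) were the low group, and the means of the other 3 ranged from 7.80 to 8.16. Il4ra did not differ by form with anti-IgM (0.33 ± 0.19, adjusted p = 0.174) or without (0.02 ± 0.19, interval -0.38 to 0.41, by limma). Cish did not either with anti-IgM (-0.48 ± 0.23, limma adjusted p = 0.104) or without (0.29 ± 0.23, limma adjusted p = 0.321); without the joint quantile step it was called in untreated cells (0.62, adjusted p = 0.0299) and measured -0.07 with anti-IgM.

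Markers of B cells and of other cells moved with some of these results, and their part in them was not tested; single markers are named here after their values were seen. The summed intensity of the 6 tested B cell markers was 19580 to 21430 in mutant cells with anti-IgM and 21650 to 23750 in untreated mutant cells, against 39980 to 41690 in wild-type cells with anti-IgM and 52430 to 60310 in untreated wild-type cells. In the wild-type response 3 of the 6 fell, where Il10ra, Il4ra and Socs3 fell, among them Cd22 (-1.25) and Cd79b (-1.11), and 0 passed with the mutant. Between forms 5 of the 6 were lower and 1 higher with the mutant untreated, and 3 lower and 0 higher with anti-IgM. Of 7 NK cell markers 2 were tested, with sums of 1492 to 1998 in wild-type cells with anti-IgM and 3808 to 5857 untreated. These sums are mostly Prf1, which fell (-1.45), while Nkg7 measured 0.36 and did not pass (limma adjusted p = 0.162). Ncr1, Klrb1c, Klrk1 and Gzmb were too dim to test. Pecam1, the only 1 of 6 genes of the stromal list that was tested, fell too (-1.53), with a difference of responses past the threshold (1.24). The others of that list, Cdh5, Col1a1, Col3a1, Vcam1 and Pdgfrb, were too dim to test. Il10 is also made by macrophages and plasma cells. Of 13 myeloid markers 7 were tested, and their summed intensity ranged from 535.3 to 831.3 in mutant cells with anti-IgM, 571.2 to 737.3 in untreated mutant cells, 832.6 to 1204 in wild-type cells with anti-IgM and 1017 to 2842 in untreated wild-type cells. The median sum of the untreated wild-type arrays was 1078. Their replicate 1, the highest of its group for Il10, was also highest for Lyz1 (10.45 against 8.59 and 8.62). The same held for Lyz2 (8.82 against 7.29 and 7.13) and Adgre1 (8.79 against 7.62 and 7.81). Of the tested myeloid markers only Fcer1g was lowest on that array (7.75 against 7.87 and 7.97). The myeloid sum was lower in the mutant groups, where Il10 was higher, but not every marker was. Between forms 0 of the 7 were higher and 4 lower with the mutant untreated, and 1 was higher and 4 lower with anti-IgM, the higher being Mpeg1 (2.02, limma adjusted p = 2.33e-05). In the wild-type response Mpeg1 (-1.51) and Adgre1 (-1.55) fell and Fcer1g (0.86) rose, and the differences of responses of Mpeg1 (1.68) and Adgre1 (1.46) passed the threshold, as did that of Il10ra. The monocyte and macrophage markers Csf1r, Itgam and Fcgr1 and the neutrophil marker S100a9 were too dim to test. All 7 plasma cell markers were tested, and their sum ranged from 53920 to 64660 and from 55750 to 68590 in mutant cells with and without anti-IgM, against 24720 to 27450 and 29730 to 32560 in wild-type cells. These sums are mostly Mzb1 and Xbp1, with mean log2 levels of 15.41 and 14.07 in untreated mutant cells. Sdc1, Tnfrsf17 and Jchain were dim there, at 6.67, 6.43 and 6.21, and add little to the sum. Of the 7, 6 were higher and 0 lower with the mutant in untreated cells, and 5 were higher and 1 lower with anti-IgM. The lower 1 was Irf4 (-1.30). Between forms the sum was higher where Il10 was higher. In wild-type cells the sum was lower with anti-IgM, where Il10 rose, and in mutant cells its ranges overlapped. Of the 7, Irf4, Prdm1 and Xbp1 are also in lists used below. Of 7 dendritic cell markers 4 were tested, with sums of 131.8 to 336.4 and 107.5 to 280.8 in mutant cells with and without anti-IgM, against 86.9 to 94.8 and 110.1 to 174.6 in wild-type cells; Itgax, Flt3 and Clec9a were too dim to test. Of 12 T cell markers 3 were tested; the defining chains Cd3d, Cd3e and Cd3g were too dim to test in any group, and the sum was 1677 to 2396 in mutant cells with anti-IgM, 1885 to 2288 in untreated mutant cells, 909.9 to 1056 in wild-type cells with anti-IgM and 1031 to 1446 untreated. Of the 3, Lat moved with Il7r: it rose in the wild-type response (0.82, limma adjusted p = 7.07e-04), measured 0.27 in the mutant response, and was lower with the mutant after anti-IgM (-0.59, limma adjusted p = 0.00504). The other tested markers went the other way. In the wild-type response Cd2 fell (-0.77) and Cd8b1 measured -0.22. After anti-IgM, Cd2 (1.30, limma adjusted p = 1.26e-04) and Cd8b1 (0.76, limma adjusted p = 0.0359) were higher with the mutant.

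The remaining genes of the pathway were taken from 6 lists, chosen with earlier results of these data known. Over all genes 31.3% passed in the wild-type response, 15.1% upward and 16.2% downward, and 0.229% in the mutant response. With the mutant, a count of 0 in a short list is near that share. In the wild-type response, anti-IgM lowered 6 and raised 1 of 9 tested JAK and STAT genes, with a median of -0.40 against -0.02 over all genes (limma, Benjamini-Hochberg, as for all counts here). Stat5a, the STAT downstream of IL-2 and IL-7, rose by 1.10 ± 0.21, while Stat2 (-0.99), Stat4 (-0.84) and the kinase Tyk2 (-0.80) fell. Without treated wild-type replicate 2 the count that fell was 3. With mutant E12, 0 of the 9 passed.

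Of 23 other cytokine receptor genes 19 were tested. With wild-type E12, 3 fell and 1 rose, with a median of -0.14, a smaller share than the 31.3% of all genes called in this comparison. The interferon receptor chains Ifngr2 (-1.33 ± 0.20) and Ifnar2 (-0.43) and the IL-27 receptor chain Il27ra (-1.06) fell, and Il2ra, the alpha chain of the IL-2 receptor, rose by 0.77; without treated wild-type replicate 1, 0 rose. With the mutant 0 of 19 passed, and the same 4 genes measured 0.05, -0.06, -0.05 and 0.36.

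All 14 genes of the other SOCS, PIAS and phosphatase inhibitors were tested, of which 3 rose and 4 fell with wild-type E12 and 0 passed with the mutant. The shares over all genes were 31.3% and 0.229%. Pias3, an inhibitor of STAT3, fell (-1.02), as did Pias1 (-0.63) and the phosphatase Ptpn6 (-0.46), and the phosphatase Ptpn2 rose by 0.85. These counts depended on single arrays. Without untreated wild-type replicate 2 or 3 only 1 rose, and 1 fell without untreated wild-type replicate 1 or without treated replicate 2 or 3, 2 without untreated replicate 3 or treated replicate 1.

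Of 13 tested cytokine target genes 4 fell and 1 rose with wild-type E12, with a median of -0.32, and 0 passed with the mutant. Over all genes 31.3% passed with wild-type E12, with a median of -0.02, and 0.229% with the mutant. The same shares apply to the other lists in this paragraph. The germinal centre repressor Bcl6 (-1.51), the IL-4-induced IgE receptor Fcer2a (-1.20) and Bcl3 (-0.79) fell, and the cyclin Ccnd2 rose by 0.99. Of 9 tested genes listed as Il10 regulators 4 rose and 0 fell, namely Irf4 (1.63), Bhlhe40 (1.27), Rel (1.06) and Batf (1.04), with a median of 0.31. The list does not separate activators from repressors. With the mutant 0 of 9 passed, where Irf4 measured -0.23 and Rel 0.66. Among 10 tested other cytokines 3 rose and 5 fell, with Csf1 up by 2.04 and Il16 (-2.11), Ltb (-1.69) and Il12a (-1.29) down, and 0 passed with the mutant; without treated wild-type replicate 1, 3 fell.

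Between forms, where 42.6% of all genes untreated and 43.5% with anti-IgM were called, the lists held calls in both directions. In untreated cells 6 receptors were higher and 5 lower with the mutant, and with anti-IgM 4 and 4. Of the JAK and STAT genes 1 was higher and 5 lower untreated, and 1 higher and 4 lower with anti-IgM, but without the joint quantile step the counts were 2 and 2 untreated and 3 and 3 with anti-IgM. Of the Il10 regulators 1 was higher and 3 lower untreated, and 1 higher and 5 lower with anti-IgM, among them Rel (-1.51 ± 0.13 with anti-IgM) and Bhlhe40 (-1.55 ± 0.21). Without the joint quantile step 4 of these regulators were higher untreated.

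**Figure D5:**
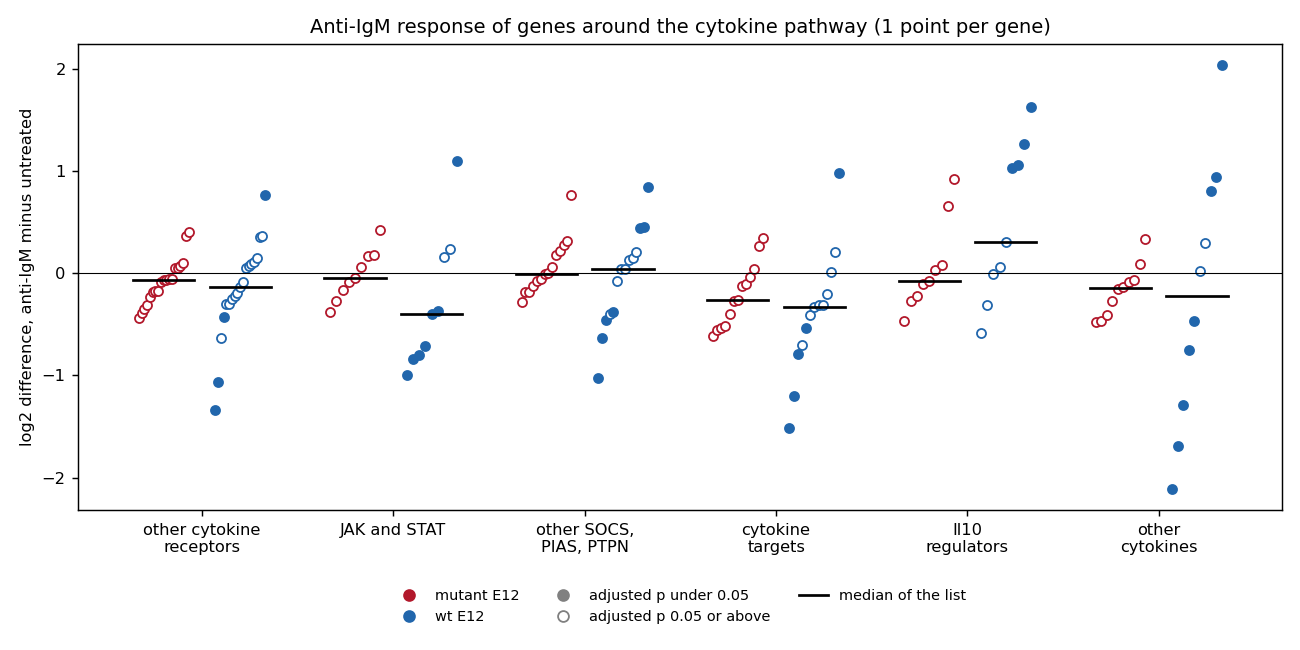
Each point is the log2 difference of anti-IgM minus untreated of 1 gene, grouped by list on the horizontal axis, with mutant E12 in red and wild-type E12 in blue; filled points have an adjusted p under 0.05 and black lines are list medians. Filled points occur only with wild-type E12, with the JAK and STAT genes mostly below 0 (median -0.40) and the Il10 regulators mostly above it (median 0.31). Over all genes 31.3% were called with wild-type E12 and 0.229% with mutant E12.

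The genes most like each member were taken as those with the smallest root mean square difference over the 12 arrays, after each gene's own mean had been taken off. For Il10 these were Chac1 (0.50 log2 units), Mt1 (0.51) and Hsd11b1 (0.52), against a median of 1.28 over all genes. The anti-IgM response of Chac1 was -0.09 with the mutant and 1.07 with the wild type, and its difference of responses passed the threshold (-1.16, limma adjusted p = 0.0222). Those of Mt1 (0.81 and 0.83) and Hsd11b1 (0.55 and 0.43) were alike in the forms. Their differences did not pass (-0.03 and 0.12, limma adjusted p = 0.960 and 0.923). For Il10ra they were Ssbp3 (0.21), Cyb561a3 (0.23) and Smim14 (0.24), against a median of 0.80, and the differences of responses of all 3 passed (1.33, 1.55 and 1.70). For Socs3 they were Cyb5a (0.17), Trafd1 (0.19) and Mospd1 (0.20), against a median of 0.62. Cish was nearest to Coq10b (0.16), Il7r to Rrn3 (0.15), Il4ra to Rhog (0.14) and Il21r to Got2 (0.14). The arrays of a group share their condition and scaling, so this likeness mostly reflects the 4 group means. The genes were picked for nearness to a member on these same arrays. Responses and calls like those of the member follow largely from that choice and are no separate result.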

How the data were processed

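The values analysed are the deposited probe intensities, background-subtracted and normalized by the authors on a linear scale, as the negative values among them show. Which software did so is not given in the sources used here, and a deposited table of signals before normalization was not used, because its 12 columns match no sample label. Groups came from the sample titles. Joint quantile normalization of all 12 arrays was followed by log2(value + 50). Each array's detection limit was set from its values below 0 at p 0.01 of a normal background (12.9 intensity units for wild-type and 15.6 or 15.7 for mutant E12), and probes above it on fewer than 3 arrays were dropped. Per gene the brightest such probe was used. Of 45281 probes 34885 had 1 symbol, 18 several and 10378 none, per the platform annotation, and 34807 were looked up by Entrez identifier, which changed 0 symbols.

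A mean for each of the 4 groups was fitted in 1 model with limma 3.58.1 (R 4.3.3; lmFit and eBayes, two-sided, 8 residual and 6.25 prior degrees of freedom). P-values were adjusted over 10050 genes within each of 5 comparisons. The fit was tested on simulated data. Treated and untreated arrays of like replicate number were compared by the correlation of their deviations from the group means. It was 0.289, 0.177 and 0.185 with wild-type E12 and 0.608, -0.0455 and 0.547 with the mutant. Wild-type replicates 2 and 3 of unlike number reached 0.153 and 0.121, so only replicate 1 stood apart there. Whether the numbers mark pairs is not known. Named genes of a list are up to 4 with the largest change past the threshold in the wild-type response. The alternatives covered the offset, the scaling, the filter, the probe rule, array weights, the samples in the fit, the replicate block and each array left out. The number of arrays limits the precision. The members and lists were chosen with earlier results of these data known.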

Additional observations from a re-analysis of the deposited data

Results flagged for a closer look

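The anti-IgM response differed between E12 forms, by the interaction term of the limma fit (adjusted p under 0.05 over 10050 genes, n = 3 per group), for Il10ra and for 11 of the 24 list genes named above. Values are log2 responses with mutant and then wild-type E12, and their difference. Il10ra had -0.30 and -2.02, a difference of 1.72 (adjusted p = 0.00130). Ifngr2 had 0.05 and -1.33, a difference of 1.39, and Il27ra -0.05 and -1.06, a difference of 1.01. Stat2 had -0.09 and -0.99, a difference of 0.91, and Pias3 -0.18 and -1.02, a difference of 0.84. Ptpn6 measured 0.77 and -0.46, opposite in sign, with a difference of 1.23 (adjusted p = 0.00718). Bcl6 had -0.04 and -1.51, a difference of 1.47, and Ccnd2 0.04 and 0.99, a difference of -0.95. Irf4 had -0.23 and 1.63, a difference of -1.86. Among the cytokines, Il16 had -0.47 and -2.11, a difference of 1.64, Csf1 -0.06 and 2.04, a difference of -2.10, and Il12a -0.16 and -1.29, a difference of 1.14. The 24 list genes were named for a large wild-type response, which the difference subtracts, so neither their number nor their direction is independent of that choice. Over all 73 distinct list genes tested 12 were called (16.4%), against 6.95% of all genes. The lists were chosen with earlier results of these data known, so this share is not independent of the data either.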

How the results depend on the processing

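Over the alternatives, 752 values of single members kept their side of the threshold, 16 gained a call and 6 lost it, all 6 for Il4ra and Cish in the wild-type response, and no called value changed sign. Of 112 counts of members, 106 stayed within 1.5 times. With array weights the counts were 1 in the mutant response (0 in the fit as reported), 5 between forms in untreated cells (3) and 5 for the difference of responses (1). Blocking on replicate number inside each form (replicate block within form), the difference of responses had 5 members called, Il10, Il10ra, Il7r, Socs3 and Cish, and the wild-type response kept 6; this block could not be fitted for differences between forms. A replicate block across all 4 groups gave 1. The counts with 1 array left out were 4 to 6 in the wild-type response, 0 in the mutant response, 3 and 5 between forms, and 1 to 3 for the difference of responses. Counts over all genes moved too: the mutant response had 23, with 2 to 57 when 1 array was left out and 7 to 717 under other settings, and the difference of responses had 698, with 373 to 809 and 385 to 2327; the highest counts came with array weights. The wild-type response had 3148, and 5196 with array weights. The cause of these moves was not tested. Il7r, Il4ra and Socs1 lie close to the detection limit, and with detection required on all 12 arrays Il4ra and Il7r were not tested.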

Other observations

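Among genes of the lists named after their values were seen, several differed between E12 forms in each treatment state, with the limits on such differences given above. Csf2ra, the alpha chain of the GM-CSF receptor, was lower with the mutant, by -1.89 with anti-IgM and -1.62 untreated, and the SOCS gene Socs5 by -0.74 and -1.01. Higher with the mutant were Il15 (1.66 with anti-IgM and 1.59 untreated), the kinase gene Pim1 (1.26 and 1.47), Stat4 (2.03 and 1.58), Il5ra, a receptor chain for IL-5 (0.71 and 0.69), and Socs2 (0.92 and 0.60). All of these passed the threshold in limma with adjusted p-values under 0.05 over 10050 genes.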
